A study of Mus musculus with 18 samples.

Results

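Proliferation and DNA replication were followed in mouse left ventricle through 10 genes, Mki67, Cenpf, Pcna, Cdc45, Mcm2, Mcm3, Mcm4, Mcm5, Mcm6 and Mcm7. They were chosen by symbol, and all 10 were among the 10597 genes of each deposited table. The hearts came from 5 knockout mice (KO, hearts 6 to 10) lacking mORF4/NBDY, a microprotein that binds the mRNA decapping machinery, and from 4 wild-type mice (WT, hearts 1 to 4). All 9 animals were C57BL/6 males aged 20 weeks. The labels give no treatment and do not describe the KO allele. Each left ventricle gave 1 poly-A RNA library and 1 library of ribosome footprints, the mRNA fragments covered by translating ribosomes. The design asks how loss of the microprotein alters transcript levels, ribosome occupancy and the ratio of footprints to RNA, called translational efficiency here.

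DNA replication begins when the MCM2-7 proteins are loaded on origins as a hexameric ring. CDC45 and the GINS complex then join the ring and turn it into the working helicase, and PCNA is the sliding clamp that holds DNA polymerase on the template. Ki-67, the product of Mki67, marks cycling cells and coats mitotic chromosomes, and CENP-F, the product of Cenpf, is a large kinetochore-associated protein that accumulates before mitosis. Most adult cardiomyocytes have left the cell cycle, so in whole ventricle these transcripts can come from few cells. In such bulk samples, fewer cells of a type and less RNA per cell cannot be told apart.

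Values are normalized reads, that is, gene counts that the authors divided by a size factor per library, and they were not corrected for transcript length, so levels are compared between hearts and not between genes. Total reads over the listed genes were 15.8 to 20.2 M in KO and 11.2 to 12.4 M in WT for RNA (M stands for 1e+06 reads). This depth gap does not overlap and the labels name no batch, so in RNA the genotype cannot be told apart from any batch of library preparation or sequencing. Footprint libraries held 22.9 to 40.8 M reads in KO and 6.67 to 36.7 M in WT, with WT heart 2 the shallowest. Nbdy, the targeted gene, had 10.9 to 19.0 normalized footprint reads in KO hearts, against 107 to 355 in WT hearts. All 7 cardiomyocyte markers were listed and none was at 0 in any library, and their summed RNA was 1488360 to 1705080 in KO and 1700490 to 1997180 in WT.

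The upstream stretches of 4 of these genes are shown, those of Mki67, of Cenpf and, from the MCM ring, of Mcm5 and Mcm6. They were searched for elements known from cell-cycle promoters: sites for E2F factors, the CHR element of genes expressed late in the cycle, and the CCAAT box. They are RefSeq sequences of build GRCm38.p6, written 5′ to 3′ on the gene's strand, limited to the last 200 bases before the listed start and to bases outside the annotated gene. Capitals mark every match, on either strand, to TTTGGCGC, TTTCGCGC, TTTGCCGC or TTTCCCGC (E2F), to TTTGAA or TTCGAA (CHR) or to CCAAT.
Mki67, chr7:135716451-135716579, minus strand: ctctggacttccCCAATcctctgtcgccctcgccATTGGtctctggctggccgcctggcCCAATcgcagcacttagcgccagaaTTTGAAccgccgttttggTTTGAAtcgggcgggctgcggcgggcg
Cenpf, chr1:189688108-189688286, minus strand: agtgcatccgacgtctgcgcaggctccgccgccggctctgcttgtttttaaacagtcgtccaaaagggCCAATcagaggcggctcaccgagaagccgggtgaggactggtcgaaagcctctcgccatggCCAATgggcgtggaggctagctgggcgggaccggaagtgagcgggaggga
Mcm5, chr8:75109309-75109467, plus strand: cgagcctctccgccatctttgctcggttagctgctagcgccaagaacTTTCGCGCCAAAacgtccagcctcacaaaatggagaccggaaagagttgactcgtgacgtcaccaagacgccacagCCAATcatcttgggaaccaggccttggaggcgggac
Mcm6, chr1:128359706-128359905, minus strand: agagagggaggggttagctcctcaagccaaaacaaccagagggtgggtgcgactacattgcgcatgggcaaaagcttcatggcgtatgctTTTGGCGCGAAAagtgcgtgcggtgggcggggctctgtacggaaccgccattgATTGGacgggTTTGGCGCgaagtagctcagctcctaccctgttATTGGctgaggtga
In the Mcm5 and Mcm6 stretches, 2 E2F matches on opposite strands overlap and form one run of capitals each. A window was available for 9 of the 10 genes, all but Mcm4. Mcm7 had a second start and so 2 windows, which makes 10. Only the 250 bases before each start were searched, here and in all 32851 windows. An E2F word stood in 3 of the 10 windows (of Mcm5, Mcm6 and Mcm7), against 1.86% of all windows. The 2 printed ring genes were those with the most E2F words, 2 in Mcm5 and 3 in Mcm6. Mcm7 held 1 such word in 1 of its 2 windows, and Mcm2 and Mcm3 held 0. A CHR word stood in 4 of the 10 (of Mki67, Mcm2, Mcm7 and Cdc45), against 17.1%, and a CCAAT word in all 10, against 33.8%. Mki67 held 2 CHR words, and Cenpf, Pcna and Mcm3 held neither an E2F nor a CHR word of this spelling. A match is a run of letters and does not show that a factor binds there.

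Mki67 (ENSMUSG00000031004; chr7:135689784-135716450) RNA was lower in KO hearts and was the only one of the 10 transcripts to pass the test. It stood at 118, 211, 267, 165 and 190 normalized reads in KO hearts 6 to 10, against 180, 326, 411 and 371 in WT hearts 1 to 4. The 5 KO hearts all lay below the WT mean, but the groups overlapped, since WT heart 1 fell below KO hearts 7, 8 and 10. KO hearts averaged 190 ± 55.5 and WT hearts 322 ± 101 (SD, n = 5 and n = 4). Mki67 RNA thus fell by 0.74 in log2 (SE 0.26; 95% interval -1.31 to -0.18; limma adjusted p = 0.0319). The call rested on single hearts: it was lost without WT heart 2, 3 or 4 (adjusted p = 0.0727, 0.0975 and 0.0868) and without KO heart 6 or 9 (adjusted p = 0.0607 and 0.0626). Over all alternatives the log2 fold change ranged from -0.999 to -0.58.

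Mki67 footprints did not pass the test. They were 91.4, 26.0, 128, 63.2 and 90.2 normalized reads in KO hearts, against 43.0, 69.0, 91.9 and 108 in WT hearts. The groups overlapped over nearly their whole range, with means of 79.7 ± 37.8 in KO and 77.9 ± 28.1 in WT (SD, n = 5 and n = 4). The log2 fold change was -0.06 with a 95% interval of -1.03 to 0.90 (limma adjusted p = 0.985), so a footprint difference as large as that of the RNA lies inside the interval. The lowest values rest on few reads, 27 in KO heart 7 and 20 in WT heart 2.

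Mki67 had few footprints for its RNA signal. Its efficiency was 0.777, 0.123, 0.478, 0.383 and 0.475 in KO hearts, against 0.240, 0.212, 0.223 and 0.290 in WT hearts. The 4 WT hearts lay close together, whereas KO hearts held both the lowest and the highest values, with KO heart 7 below every WT heart and the other 4 above. The medians, 0.475 in KO and 0.232 in WT, stood at the 14.3 and 6.88 percentiles of 9974 genes. Such ranks between genes also depend on how much of each transcript is coding, which was not corrected for. The genotype difference in efficiency was 0.68 ± 0.54 on the log2 scale (SE; limma adjusted p = 0.452) and did not pass the test.

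Cenpf (ENSMUSG00000026605; chr1:189640606-189688107) had more footprints in every KO heart than in any WT heart. They were 653, 571, 1141, 1027 and 871 normalized reads in KO hearts, against 235, 383, 266 and 539 in WT hearts. KO heart 7, the lowest of its group, lay just above WT heart 4, the highest of the other. Means were 853 ± 242 in KO and 356 ± 138 in WT (SD, n = 5 and n = 4), a fitted fold of 2.44 (95% interval 1.69 to 3.52). By p this was rank 3 of 9976 genes, but the difference of 1.29 ± 0.25 on the log2 scale (SE) did not pass adjustment over all genes in limma (adjusted p = 0.290), nor in edgeR's quasi-likelihood test on whole reads (1.26; adjusted p = 0.302). It passed in DESeq2 on the same reads (1.26; adjusted p = 0.00213) and in the authors' deposited table (0.74; adjusted p = 0.00225), and in limma without WT heart 4 (1.51; adjusted p = 0.0448). The DESeq2 and deposited results are not independent, as the authors' tools included DESeq2. Unadjusted p was 8.55e-07 in DESeq2 here and 8.74e-07 in the authors' deposited table. At nearly the same p the deposited fold change was smaller, so its scale may differ. Over all alternatives the log2 fold change lay between 0.74, the deposited value, and 1.51, with adjusted p from 0.00213 to 0.953.

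Cenpf RNA was higher on average in KO hearts without passing the test. It was 330, 422, 647, 679 and 455 normalized reads in KO hearts, against 212, 284, 362 and 544 in WT hearts. WT heart 4 lay above KO hearts 6, 7 and 10, so the groups overlapped. The log2 fold change was 0.57 ± 0.27 (SE; 95% interval -0.01 to 1.15; limma adjusted p = 0.0971). It passed without WT heart 4 (0.81; adjusted p = 0.0182) or without KO heart 6 (0.71; adjusted p = 0.0389), the 2 settings in which Mki67 dropped out and Cenpf was the called gene.

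Cenpf efficiency was 1.98, 1.35, 1.76, 1.51 and 1.91 in KO hearts, against 1.11, 1.35, 0.735 and 0.992 in WT hearts. KO hearts lay above WT hearts, but KO heart 7 and WT heart 2 differed by less than the last digit shown. The difference of 0.72 ± 0.41 on the log2 scale (SE) did not pass when the RNA and footprint libraries of a heart were treated as independent (limma adjusted p = 0.264). With the heart as a replicate block, which uses that both libraries come from the same ventricle, it was 0.72 ± 0.19 (SE; 95% interval 0.32 to 1.13) and passed (limma adjusted p = 0.0163).

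**Figure D1:**
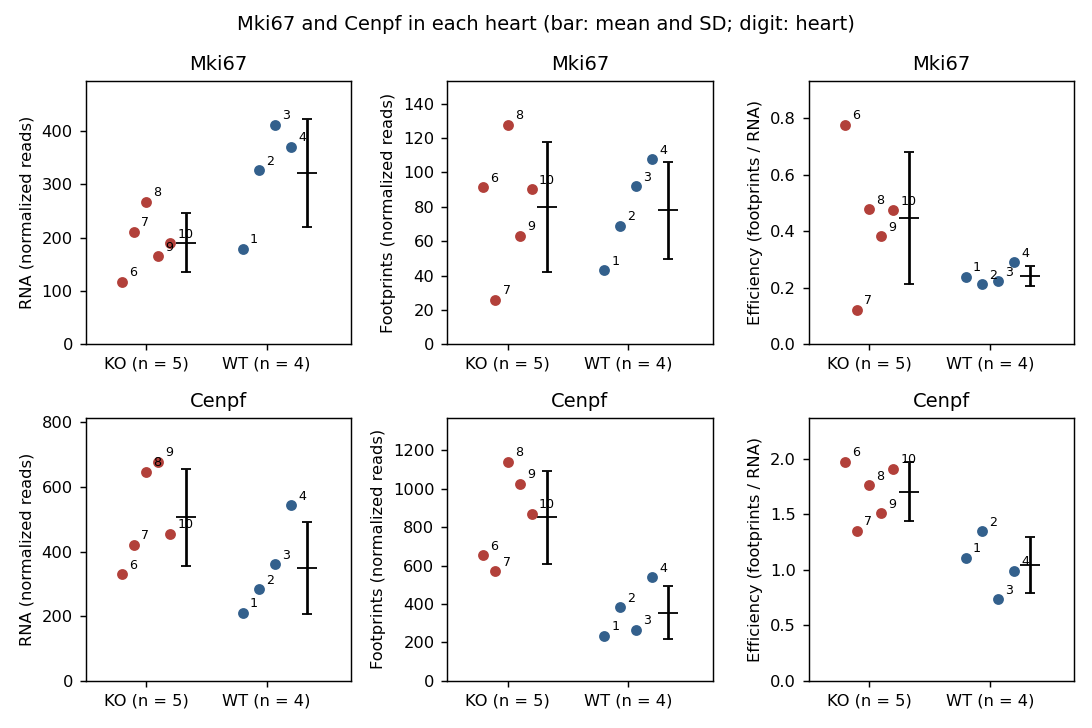
RNA and footprints (normalized reads) and efficiency (footprints over RNA) of Mki67, top, and Cenpf, bottom, in KO hearts, left, and WT hearts, right; each point is 1 heart with its number, and bars give the mean and SD. Mki67 RNA averages 190 in KO and 322 in WT with overlapping hearts, and Cenpf footprints of all 5 KO hearts, from 571, lie above all 4 WT hearts, up to 539.

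Beside the values over all genes, few of the 10 passed a test. In RNA 0 were higher and 1 was lower in KO by limma, whereas 49.4% of the 10580 genes tested passed (24.3% higher and 25.1% lower in KO). Apart from Mki67, log2 fold changes in RNA ran from 0.01 for Mcm4 to 0.57 for Cenpf, and the median over the 10 was 0.13, beside 0.01 over all genes. In RNA no member had genotypes that did not overlap, a property of 40.5% of genes. In footprints 0 of 10 passed by limma and 1 had an unadjusted p below 0.05 (Cenpf), with a median of 0.25 beside -0.003 over all genes, and 0.02% of genes passed. DESeq2 on whole reads called 1 of 10 in footprints (0.0602% of genes) and edgeR 0 of 10. Genotypes did not overlap in footprints for Cenpf alone among the 10, against 1.6% of genes. In efficiency 0 of 10 passed and 0 had an unadjusted p below 0.05, where 14.4% of genes passed. Over all genes, 505 of 9976 in footprints and 2772 of 9974 in efficiency had an unadjusted limma p below 0.05. With the replicate block 1 of 10 passed, Cenpf, where 18.6% did, and Cenpf was also the 1 member whose genotypes did not overlap in efficiency, against 18.3% of genes. The authors' deposited table placed all 10 in its unchanged class, which holds 8984 of the 10597 genes.

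**Figure D2:**
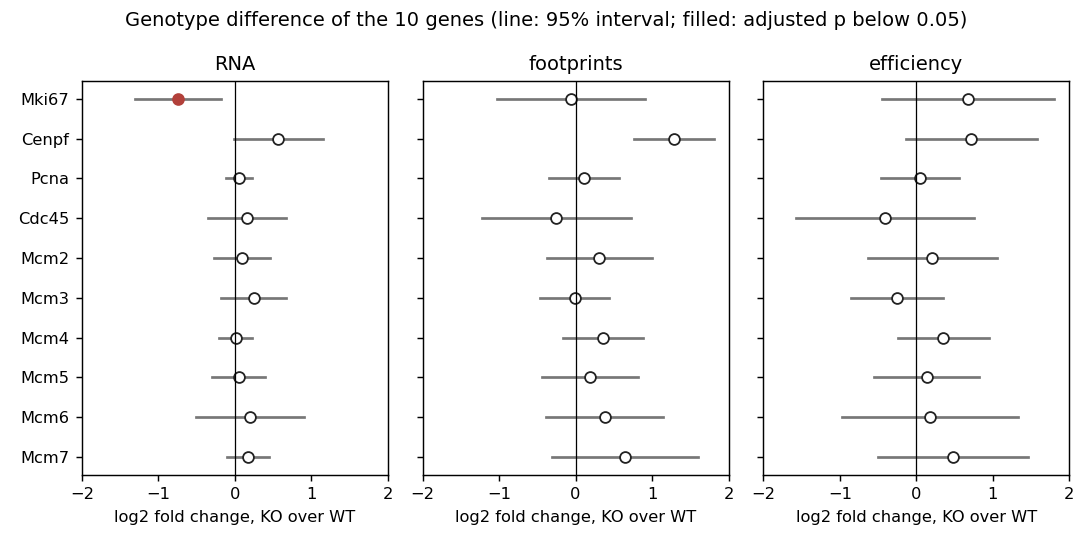
Log2 fold change, KO over WT, of the 10 genes in RNA, footprints and efficiency by limma; lines are 95% intervals and the filled point marks an adjusted p below 0.05. Mki67 in RNA is the only filled point, and the Cenpf footprint interval, 0.76 to 1.82, is the only one in footprints that leaves out 0.

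Pcna, the clamp, was among the steadiest of the 10 transcripts. Its RNA was 447, 423, 501, 537 and 438 normalized reads in KO hearts, against 458, 454, 468 and 422 in WT hearts. The groups overlapped, and the log2 fold change was 0.05 with a narrow 95% interval of -0.12 to 0.23 (limma adjusted p = 0.598). Footprints spread more in KO, with 406, 353, 722, 696 and 513 in KO hearts and 495, 425, 438 and 578 in WT hearts, and a log2 fold change of 0.11 (95% interval -0.35 to 0.56; limma adjusted p = 0.939). KO hearts 8 and 9, the highest in Pcna footprints, were also the highest in Cenpf footprints. Pcna has a named pseudogene, Pcna-ps2, listed at 311 to 384 normalized RNA reads and 114 to 303 footprint reads, so how reads were split between them is uncertain.

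Cdc45, the helicase activator, was low in RNA and scattered in footprints. RNA was 43.7, 55.2, 62.1, 65.4 and 53.1 normalized reads in KO hearts, against 33.4, 39.4, 63.3 and 71.7 in WT hearts. WT hearts held both the lowest and the highest values, and the log2 fold change was 0.16 (95% interval -0.35 to 0.66; limma adjusted p = 0.591). Footprints were 63.9, 48.1, 53.9, 88.8 and 72.9 in KO hearts, against 114, 24.2, 120 and 101 in WT hearts, with a log2 fold change of -0.25 (95% interval -1.22 to 0.73; limma adjusted p = 0.930), and -0.79 without WT heart 2. The value of WT heart 2 rested on 7 reads (exact Poisson 95% interval 2.81 to 14.4, counting error only). The other 3 WT hearts lay above the 5 KO hearts, but with all hearts the groups overlapped. No share of all genes was computed for such a separation with 1 heart set aside. Cdc45 footprints passed under no alternative, also not without WT heart 2. Cdc45 overlaps Ufd1 by 237 bases and Mcm7 overlaps Ap4m1 by 91 bases, and the RNA libraries do not mark strand, so the RNA values of both are uncertain at those ends.

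None of the 6 subunits of the MCM ring passed the test in RNA, nor had any an unadjusted p below 0.05. Of all 10580 genes tested in RNA, 5896 had such a p. Their log2 fold changes were 0.10 for Mcm2, 0.25 for Mcm3, 0.01 for Mcm4, 0.05 for Mcm5, 0.20 for Mcm6 and 0.17 for Mcm7, with adjusted p from 0.278 to 0.944 in limma. Mcm4 was the most narrowly bounded, at 179 ± 16.2 normalized reads in KO and 177 ± 15.7 in WT (SD, n = 5 and n = 4), with a 95% interval of -0.21 to 0.22. Mcm2 RNA was tight in KO, at 133 to 154 normalized reads, and wide in WT, at 100.1 to 201.3. Mcm3 RNA lay between 96.0 and 154 in KO and between 86.3 and 151 in WT, and Mcm5 RNA between 50.5 and 75.6 in KO and between 53.0 and 76.0 in WT. Mcm7 RNA was 168 to 193 in KO and 121 to 187 in WT, where WT heart 2 was the lowest, and its log2 fold change was 0.04 without that heart. The genotypes overlapped for each of the 6 genes.

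Mcm6 varied most of the 10 in the RNA of WT hearts. It was 156, 90.9, 91.9, 99.4 and 139 normalized reads in KO hearts, against 157, 132, 103 and 43.3 in WT hearts. The 4 WT hearts spread over a 3.63-fold range, with WT heart 4 lowest. The coefficient of variation was 26.1% in KO and 45.1% in WT, and the WT value stood at the 98.7 percentile of all genes tested in RNA, whose median was 8.73% in KO and 9.79% in WT. The log2 fold change of 0.20 had a 95% interval of -0.51 to 0.90 (limma adjusted p = 0.637), and it was -0.19 without WT heart 4.

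In footprints KO heart 6 stood apart for part of the ring. Mcm6 footprints were 571, 131, 170, 189 and 237 normalized reads in KO hearts, against 216, 211, 190 and 102 in WT hearts. KO heart 6 stood far above every other heart, and without it the log2 fold change was 0.04 instead of 0.38. Mcm2 footprints were 401, 215, 202, 151 and 196 in KO hearts, against 184, 93.2, 285 and 203 in WT hearts, with a log2 fold change of 0.31, which was 0.09 without KO heart 6 and 0.001 without WT heart 2, whose value rests on 27 reads. Mcm7 footprints were 156, 62.5, 96.4, 74.0 and 68.7 in KO hearts, against 73.4, 20.7, 63.8 and 90.9 in WT hearts. The Mcm7 log2 fold change was 0.65 (95% interval -0.30 to 1.60; limma adjusted p = 0.854), and 0.20 without WT heart 2, whose value rests on 6 reads (exact Poisson 95% interval 2.20 to 13.1).

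The other 3 subunits did not share the high value of heart 6. Mcm3 footprints were 228, 244, 321, 238 and 329 normalized reads in KO hearts, against 272, 214, 346 and 266 in WT hearts. Mcm4 footprints were 443, 303, 405, 407 and 383 in KO hearts, against 420, 162, 335 and 351 in WT hearts. Mcm5 footprints were 123, 100, 131, 113 and 126 in KO hearts, against 89.1, 69.0, 125 and 149 in WT hearts. KO heart 6 was the lowest KO heart for Mcm3, the highest for Mcm4 by a small margin and in the middle for Mcm5, and WT heart 2 was the lowest WT heart for all 3. Their log2 fold changes were -0.01, 0.36 and 0.19, none past the test (limma adjusted p from 0.854 to 0.995). Without WT heart 2 they were -0.12, 0.07 and -0.005.

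**Figure D3:**
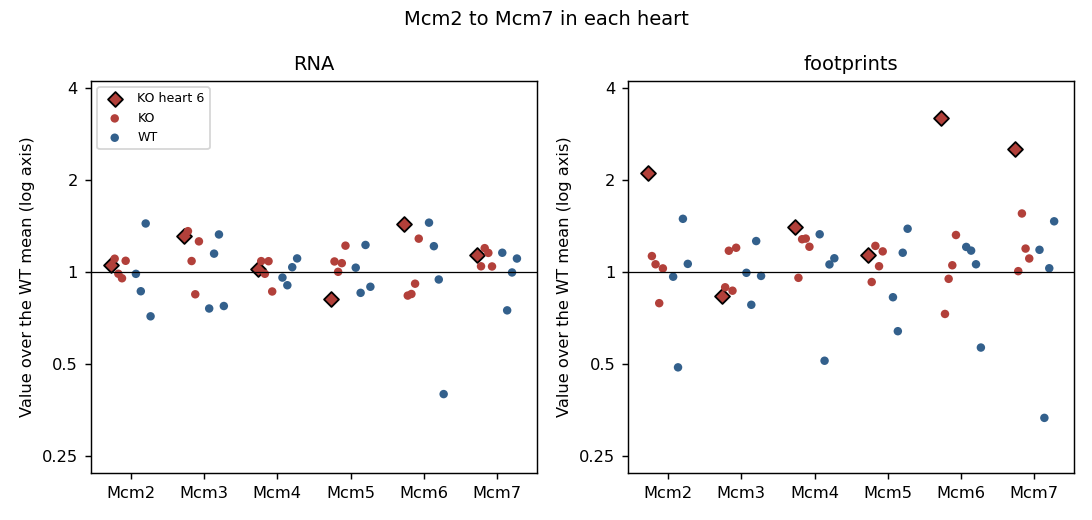
Mcm2 to Mcm7 in RNA, left, and footprints, right, each value divided by the WT mean of the gene (log axis); red points are KO hearts, with diamonds for KO heart 6, and blue points are WT hearts. KO heart 6 lies far above the other KO hearts in footprints for Mcm2, Mcm6 and Mcm7 but not in RNA.

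Efficiency split the ring into a group of 5 and Mcm7. The median efficiency of Mcm7 was 0.408 in KO and 0.395 in WT, at the 12.0 and 12.4 percentiles of all genes, whereas the other 5 had medians from 1.39 to 2.32 in KO and from 1.38 to 2.66 in WT. Mcm4 was highest in KO, at the 73.1 percentile, and Mcm3 in WT, at the 76.7 percentile. These ranks carry the limit on coding share given for Mki67, and RNA reads of Ap4m1 or of the precursors of Mir25, Mir93 and Mir106b, which lie inside Mcm7, could not be separated from its own. Genotype differences in efficiency ran from -0.26 for Mcm3 to 0.48 for Mcm7 on the log2 scale, none past the test (limma adjusted p from 0.462 to 0.873).

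**Figure D4:**
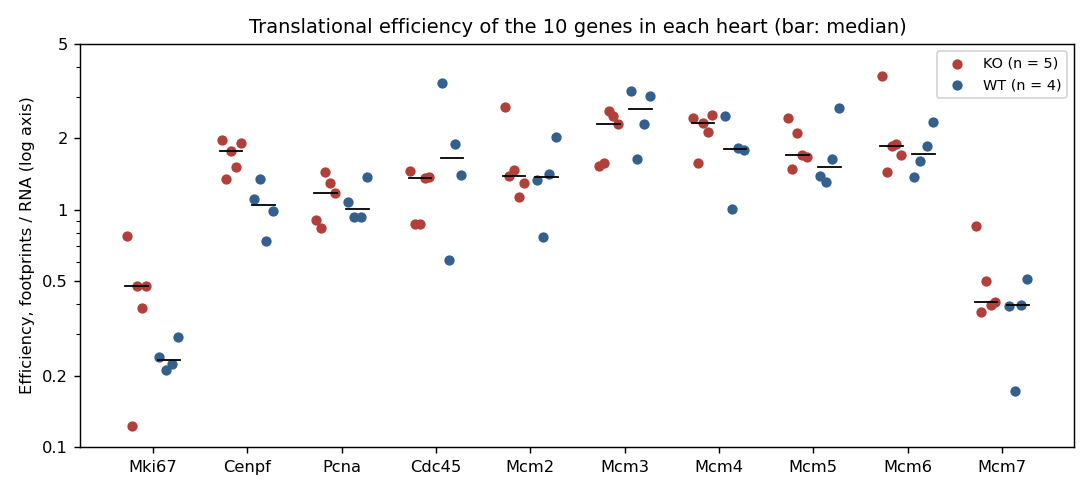
Efficiency (footprints over RNA, log axis) of the 10 genes in each heart, KO in red left of WT in blue, with bars at the medians. The medians of Mki67 and Mcm7 lie below those of the other 8 genes in both genotypes, at 0.475 and 0.408 in KO and 0.232 and 0.395 in WT.

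Among hearts of a genotype, the 10 genes did not move as one block. With each genotype's mean removed, RNA of Cenpf followed that of Cdc45 (r = 0.920 over 9 hearts) and Mki67 followed both less closely (0.703 with Cenpf and 0.744 with Cdc45). Mcm6 ran against Cenpf and Cdc45 (-0.850 and -0.857). In footprints Mcm4 followed Cdc45 and Mcm7 (0.915 and 0.892), and Mcm2 followed Mcm7 (0.821), where the few reads of WT heart 2 and the high values of KO heart 6 are shared by the points. Over 10570 other genes, RNA most like Mki67 was that of Cep350, Cdc123 and Hnrnpab (0.960, 0.952 and 0.947), and RNA most like the mean of Mcm2 to Mcm7 was that of Ube2d1, Nsd2 and AU040320 (0.965, 0.957 and 0.953). These are descriptions of 9 hearts that share their libraries, with no test. The highest of 10570 correlations over 9 hearts are high by selection alone, so the genes named are not shown to move with Mki67 or the ring.

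The wider replication and division machinery was examined through 7 lists, of which 68 genes were tested in RNA. Only 8 of 37 symbols of the mitosis list and 5 of 16 of the helicase activation list were among the 10597 genes, so those lists are read only for the genes listed. Of the 68, 16 were higher, 21 lower and 31 did not pass, beside the 24.3% higher and 25.1% lower among all genes. In footprints 0 of 67 passed by limma, edgeR or DESeq2, and 1 had an unadjusted limma p below 0.05, beside 505 of all 9976 genes. In efficiency 3 were higher and 1 lower of 67, or 5.97% beside 14.4% of all genes. With the replicate block 5 were higher and 4 lower, or 13.4% beside 18.6%. Neither efficiency share is above that of all genes, so the efficiency counts are no result about these lists. The RNA counts were not tested against the shares of all genes.

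Of the 12 symbols of the origin licensing list 9 were tested in RNA, and Orc1, Cdc6 and Cdt1 were not among them. Not all of the 9 load the ring, as the list also holds Gmnn, Mcm8, Mcm9 and Mcmbp. Of the 9, 1 was higher and 2 were lower. Orc4 and Orc6, subunits of the origin recognition complex, fell by 0.76 and 0.44 on the log2 scale, and Mcmbp, an MCM-binding protein, rose by 0.30 (limma adjusted p = 4.12e-05, 0.0290 and 0.00175). Of 5 helicase activation genes 1 was higher and 2 were lower. Tipin and Timeless, partners in the fork protection complex, fell by 0.90 and 0.39, and the GINS subunit Gins4 rose by 0.28 (limma adjusted p = 0.000638, 0.0285 and 0.0296). Single hearts decided several of these calls. Orc6 lost its call without heart 1, 4 or 10, Timeless without heart 2, 3, 4, 7, 8, 9 or 10, and Gins4 without heart 1, 3, 4, 6 or 9, with adjusted p up to 0.0719 for Orc6, 0.0800 for Timeless and 0.0897 for Gins4 over all alternatives. Gins4 also lost its call with quantile normalization (0.20; limma adjusted p = 0.0897) and did not pass in the authors' deposited table (0.27; adjusted p = 0.0530).

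Of 7 polymerase genes 3 were higher and 3 lower. Pold3, Pole3 and Pola2, accessory subunits of the delta, epsilon and alpha polymerases, fell by 0.55, 0.53 and 0.39 (limma adjusted p = 0.000899, 0.00115 and 0.00330). The 3 higher genes, named after their values were seen, were Pold1, the catalytic subunit of the delta polymerase, and the accessory subunits Pole4 and Pold4, which rose by 0.35, 0.49 and 0.86 (limma adjusted p = 0.00613, 0.00925 and 0.0130). Pold1 RNA averaged 238 ± 15.9 normalized reads in KO and 187 ± 17.2 in WT, without overlap, whereas Pold4, at 43.4 ± 9.71 in KO and 23.8 ± 8.02 in WT (SD, n = 5 and n = 4), overlapped. With quantile normalization Pole4 and Pold4 lost their calls (limma adjusted p = 0.0514 and 0.0706). Of 13 clamp loading and Okazaki fragment genes 5 were higher and 2 lower. Rpa1, the large subunit of the single-strand binding protein, and Rfc3, a clamp loader subunit, rose by 0.34 and 0.47, and Rfc1, the large clamp loader subunit, fell by 0.26 (limma adjusted p = 0.00138, 0.00556 and 0.00531). The Rfc3 call was lost with quantile normalization (0.28; limma adjusted p = 0.0567). None of 5 deoxynucleotide supply genes passed in limma, and 0 had an unadjusted p below 0.05, beside 5896 of all 10580 genes.

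Of 8 mitosis genes listed 1 was higher and 5 were lower. Cenpa, the centromeric histone H3 variant, rose by 0.59, while Bub3, a spindle checkpoint protein, and Smc2, a condensin subunit, fell by 0.28 and 0.73 (limma adjusted p = 0.000127, 0.00126 and 0.0128). Smc2 was 64.6 ± 12.0 normalized reads in KO and 110 ± 36.5 in WT (SD, n = 5 and n = 4). Of 21 regulators of the G1/S transition 5 were higher and 7 lower. Cdkn1b, which encodes the CDK inhibitor p27, was 326 ± 34.9 normalized RNA reads in KO and 683 ± 62.0 in WT (SD, n = 5 and n = 4), and fell by 1.07 in log2 (limma adjusted p = 3.79e-06). E2f6, a repressive E2F, fell by 0.39, and Cdk4, the cyclin D-dependent kinase, rose by 0.39 (limma adjusted p = 0.000399 and 0.00115).

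**Figure D5:**
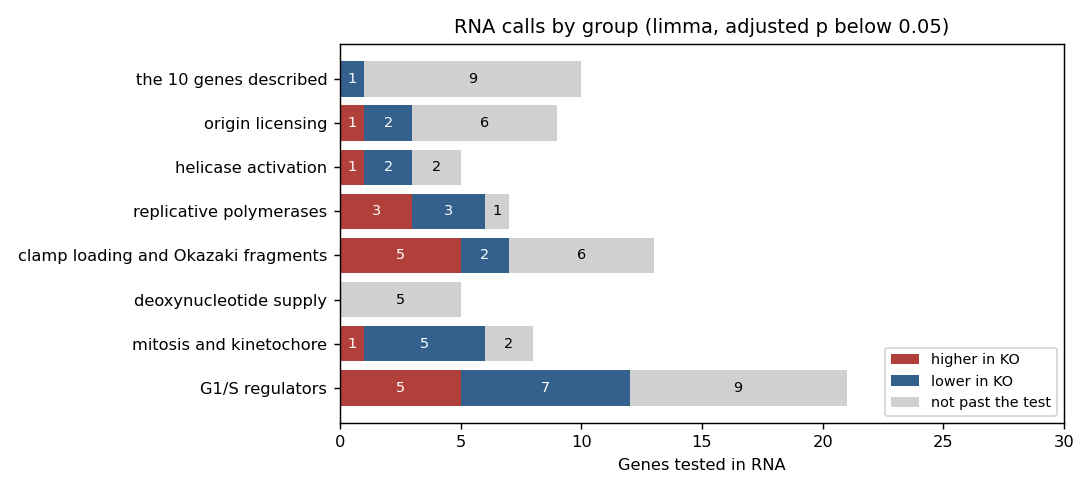
Number of genes tested in RNA in each group, split into those higher in KO, those lower in KO and those not past the test (limma, adjusted p below 0.05). The 10 genes described hold 1 lower gene and 9 not past the test, and the other groups hold calls in both directions except deoxynucleotide supply, which holds none.

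In efficiency the 4 genes that passed were Cdkn1b, Tipin, Orc4 and Cdk4, each moving against its own RNA. Cdkn1b efficiency was 4.43 ± 0.480 in KO and 1.95 ± 0.0935 in WT (SD, n = 5 and n = 4), a rise of 1.17 in log2 (limma adjusted p = 2.51e-05). Tipin rose by 1.15 and Orc4 by 0.82, and Cdk4 fell by 0.58 (limma adjusted p = 0.0216, 0.0216 and 0.0456). Tipin lost its call without heart 1, 2, 6 or 7, Orc4 without heart 2, 3 or 10, and Cdk4 without heart 1, 3, 4, 6, 7, 8 or 10, while Cdkn1b kept its call under every alternative run. Their footprints did not pass, with log2 fold changes of 0.10 for Cdkn1b, 0.24 for Tipin, 0.06 for Orc4 and -0.20 for Cdk4. Efficiency has RNA as its denominator. Where footprints change little, its move against the RNA therefore follows from the ratio and is no separate finding. Efficiency also shares the depth gap of the RNA libraries.

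Markers of the heart's cell types give the setting for these values. Their counts past the RNA test are to be read beside all genes, of which 24.3% were higher and 25.1% lower. The summed RNA of 6 endothelial markers was 12807 to 14845 normalized reads in KO and 14999 to 17039 in WT, without overlap, and overlapped in footprints at 23045 to 27028 in KO and 24624 to 28853 in WT. By gene the endothelial list was mixed in RNA, with 4 of 6 lower and Tie1 higher by 0.34 in log2 (limma adjusted p = 0.00132). Of the 7 cardiomyocyte markers 4 were lower and 0 higher, and their sums overlapped slightly. The sums of 5 macrophage and leukocyte markers overlapped, but 2 of the 5 were higher and 1 lower, Cd68, at 227 ± 34.2 normalized reads in KO and 470.3 ± 38.1 in WT (SD, n = 5 and n = 4). Ighm, the 1 lymphocyte marker listed of 6, had 124 to 227 RNA reads in KO and 231 to 334 in WT. The sums of 6 fibroblast and 4 erythroid markers overlapped, with 1 gene higher and 0 lower in each, and no listed marker was at 0. In footprints none of these markers passed in limma, and 2 had an unadjusted p below 0.05, 1 of the cardiomyocyte list and Ighm. Of all 9976 genes tested in footprints, 505 had such a p. The part of these cell types in the Mki67 RNA result and in the Cenpf footprints was not tested.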

How the data were processed

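Left ventricles of 5 KO and 4 WT mice each gave 1 poly-A RNA and 1 footprint library, 18 in all. The build was GRCm38 (mm10) and the tools HTSeq, DESeq2 and STAR 2.7.1a, per the submitters' processing notes. Per the labels' protocols the RNA kit does not mark strand. The authors deposited 3 tables of 10597 genes, whose values in RNA and footprints are a normalized signal per gene, which the values show to be counts divided by a size factor per library by the authors. The deposited log2 fold changes and p-value columns are the authors' own, per the file headers. Their RNA and footprint changes run KO over WT, and their efficiency change runs WT over KO and was turned round here, since 3.76% of genes had the same sign as KO over WT. The 9 per-heart columns of the efficiency table match no single sample and were not used. Efficiency was computed as footprint over RNA signal of a heart.

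Genes with a mean of at least 10 were tested with limma 3.58.1 (mean-variance trend, R 4.3.3) on log2(value + 1), a scale that understates changes of low genes. Benjamini-Hochberg adjustment ran over all genes, with a threshold of 0.05. Efficiency was the genotype by assay interaction over 18 libraries. Dividing by the value of 1 read gave whole reads (within 0.01) for 100% of footprint values, and edgeR 4.0.16 and DESeq2 1.42.0 were run on these with the deposited size factors. RNA values divided by such a step, the value of 1 read, also gave whole reads at 100% in both genotypes. No count test was run here on RNA. The smallest footprint step was worth 0.550 and the largest 3.45 normalized reads, and members rested on 6 to 1314 footprint reads per library. Count intervals cover counting error only.

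Per the labels, equal numbers in both assays mark a shared heart. Deviations from the genotype means correlated between the assays of a heart at 0.197 to 0.503 over 6956 genes with all values of at least 100. Assays of different hearts were not correlated, so these values cannot check the pairing, which rests on the labels. The hearts are separate animals. Gene symbols matched 10560 identifiers, and positions and promoters are RefSeq's for GRCm38.p6. The members, the lists and the markers were chosen with earlier results of these data known. Genes named beside the members are, by list, those with the smallest adjusted p past the threshold, at most 3 a list and comparison. The scripts were tested on simulated data. Alternatives were TMM factors, quantile normalization, a pseudocount of 5, no filter, leaving out each heart, the replicate block, edgeR, DESeq2 and the authors' deposited table.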

Additional observations from a re-analysis of the deposited data

Results flagged for a closer look

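In KO heart 6, footprints of 2 MCM subunits lay apart from the other 4 KO hearts. Mcm2 had 401 normalized footprint reads there, against 151 to 215 in the other KO hearts, and Mcm6 had 571, against 131 to 237. Efficiency lay apart in the same heart for 3 subunits, at 2.72 for Mcm2 (1.13 to 1.47 in the other KO hearts), 3.66 for Mcm6 (1.44 to 1.90) and 0.853 for Mcm7 (0.371 to 0.499). What marked them was a gap to the nearest heart above Dixon's 95% critical value. In all, 5 of 60 groups of values met this, and chance marks about 1 in 20. The 5 values come from 1 heart, and efficiency is built from the same footprints, so they are not independent. KO heart 6 also had the highest fibroblast marker sum among KO hearts, at 76948 normalized footprint reads against 50494 to 58427, and the highest macrophage and leukocyte sum, at 11152 against 7527 to 10055. In RNA it was likewise highest for both sums, at 21609 and 3197. The footprint library of KO heart 6 was also the deepest of all, at 40.8 M reads against 22.9 to 26.7 M in the other KO hearts. The part of these marker sums and of depth in the MCM values was not tested.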

How the results depend on the processing

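For the 10 genes, 406 of 450 values under alternatives kept their direction and side of the threshold, 5 lost the threshold, 6 passed it and 33 turned direction; none of the 33 was past the threshold. For the other named genes 322 of 357 kept both, 35 lost the threshold and 0 turned. With quantile normalization the RNA log2 fold changes of Cdc45, Mcm4 and Mcm5 were -0.0456, -0.0486 and -0.135, and the footprint changes of Mki67 and Mcm3 were 0.0145 and 0.00229. Mki67 footprints were 0.0344 by edgeR, 0.0341 by DESeq2 and 0.0106 in the authors' deposited table. The cause was not tested.

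Leaving out each heart in turn, the log2 fold change ran in RNA from -0.0252 to 0.33 for Cdc45, -0.0471 to 0.29 for Mcm2, -0.0378 to 0.0641 for Mcm4, -0.0191 to 0.15 for Mcm5 and -0.19 to 0.42 for Mcm6. It ran in footprints from -0.32 to 0.29 for Mki67, -0.0132 to 0.24 for Pcna, -0.12 to 0.11 for Mcm3, -0.00533 to 0.36 for Mcm5, -0.79 to -0.03 for Cdc45, 0.001 to 0.54 for Mcm2 and 0.07 to 0.53 for Mcm4. In efficiency it ran from -0.0421 to 0.17 for Pcna, -0.0418 to 0.42 for Mcm2 and -0.0363 to 0.32 for Mcm6. Members called in RNA numbered 0 to 1 when a heart was left out, 0 without heart 2, 3 or 9, and 1 (Cenpf in place of Mki67) without heart 4 or 6. Over all genes, footprint calls numbered 0 to 3 when a heart was left out, 1 with no filter on low values, 6 by DESeq2 and 6 in the authors' deposited table, against 2 here. Members called in footprints numbered 0 to 1 when a heart was left out, 1 by DESeq2 and 1 in the authors' deposited table, in each case Cenpf.

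With the heart as a replicate block, 1852 genes passed in efficiency against 1434 without it, and the members called numbered 1 (Cenpf) against 0; no other member changed its call. Count tests were not run on RNA here. Depth limits Cdc45, Mcm5, Mcm7 and Mki67 most in WT heart 2, whose footprint values there rest on 7, 20, 6 and 20 reads.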

Other observations

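In footprints, the 3 genes whose values followed Mki67 most closely over the 9 hearts, after removal of each genotype's mean, were Abcc9, B9d1 and Ifit3 (r = 0.962, 0.954 and 0.939 over 9966 genes). Those closest to the mean of Mcm2 to Mcm7 were Pdcd2l, Mier2 and Fam207a (0.977, 0.968 and 0.957). None of these 6 was among the genes closest in RNA. The values describe 9 hearts that share their libraries and carry no test. As the highest of 9966, they are high by selection alone.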
